A study of Mus musculus with 3 samples.

Results

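The miRNAs of the mouse miR-297, miR-466, miR-467 and miR-669 families were examined in matrix vesicles (MVs), together with the UG-rich miR-1187, miR-574-5p and miR-3082-5p. The families were chosen by the names of the array features, and these last 3 miRNAs were picked for their bright signals on the same arrays, so their brightness is a description and not a finding. Of the 1079 mouse miRNA features on the array, 65 met this rule, 62 of them by family name. The MVs came from the extracellular matrix laid down by MC3T3-E1 cells, an established mouse osteoblastic line, in osteogenic medium, and were obtained by 500 units/mL collagenase and ultracentrifugation. The deposited design gives 3 independent isolations of MVs, which are called isolations 1, 2 and 3 here, whereas the methods state only that the RNA extractions were independent, so the spread between arrays may be technical in part. According to the sample labels the medium contained beta-glycerophosphate, whereas the methods describe MV cultures without it. Total RNA (100 ng) of each isolation was labeled with Cy3 and hybridized to 1 array, so the samples formed 1 group (n = 3 arrays), and neither the parent cells nor a second condition were analysed here. No test between groups or between single isolations was therefore possible, and every value below is descriptive.

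Detection follows the call of the scanner software for each feature, and the level of a feature is the total gene signal, an intensity on a linear scale with no normalization between arrays. An undetected feature carries a signal of 0.1, which stands for a level below detection and not for a measured value. Detected mouse miRNAs numbered 86, 179 and 164 in isolations 1, 2 and 3, with lowest detected signals of 4.87, 4.39 and 4.41, and the 7 negative control features gave 0 detected readings of 21. Of the listed mesenchymal miRNAs, 4 of the 6 on the array were detected in isolations 2 and 3, and 3 of these in isolation 1. The 4 were miR-199a-3p, miR-199a-5p, miR-214-3p and miR-21a-5p, and the others were not detected in any isolation. The summed signal of the detected ones was 37.2, 706 and 544 in isolations 1, 2 and 3. None of the 5 leukocyte, 2 red blood cell, 1 liver or 3 neuron miRNAs was detected, whereas 1 of the 3 muscle miRNAs, miR-206-3p, was. Isolation 1 thus stood apart from the other two, and the means below are also given over isolations 2 and 3 alone.

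MicroRNAs are short RNAs that are cut as a pair of arms (5p and 3p) from a hairpin precursor. One arm is usually loaded into an Argonaute protein, and its seed, bases 2 to 8, guides it to target mRNAs. Most genes of the miR-297, miR-466, miR-467 and miR-669 families lie in a rodent-specific cluster within Sfmbt2, a Polycomb-related gene that is imprinted and strongly used in the placenta. Their hairpins derive from simple dinucleotide repeats, so that 5p arms are typically rich in U and G and 3p arms rich in C and A. Many members differ from each other by few bases. Near-identical members can share signal on a hybridization array, and the size of this was not tested.

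Mature sequences were taken from RefSeq (GRCm38.p6) by miRNA name, which gave 10 of the 65 members, all with genes outside Sfmbt2. They are shown because the families hold UG repeats and CA repeats. A repeat is counted here from 6 bases of unbroken alternation, whereas a UG run further below has at least 8. With a UG repeat, 5 of 6 members were detected, but 3 of these were picked for brightness. Without them it was 2 of 3, against 0 of 4 with a CA repeat and 15.9% of all mouse miRNAs with a sequence. Capitals mark the seed, and all are written 5′ to 3′. The first lines are the members with a UG repeat.

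miR-574-5p: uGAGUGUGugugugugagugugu

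miR-1187: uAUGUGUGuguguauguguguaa

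miR-3082-5p: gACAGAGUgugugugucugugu

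miR-669n: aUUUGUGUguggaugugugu

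miR-466j: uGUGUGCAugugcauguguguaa

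miR-466k: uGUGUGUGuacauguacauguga

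The other members with a sequence carry a CA repeat, and none of them was detected.

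miR-466i-3p: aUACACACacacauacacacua

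miR-466q: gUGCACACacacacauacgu

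miR-467f: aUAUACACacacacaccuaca

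miR-467g: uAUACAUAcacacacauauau

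These sequences lie at chr5:64970328-64970350 on the plus strand for miR-574-5p and at chr5:82798964-82798986 on the minus strand for miR-1187. That of miR-3082-5p lies at chr17:25831406-25831427 (minus), that of miR-669n at chr3:115979905-115979924 (plus) and that of miR-466j at chr10:60960802-60960824 (plus). Between the 10 members with a sequence, 45 pairs were compared. The fewest edits (substitutions, insertions or deletions) between a pair were 4, for miR-1187 and miR-466j, and no pair had the same seed. Thus no pair within 1 base of each other could be compared for detection. All 10 seeds occurred in no other of the 867 mouse features with a sequence. The 55 members without a sequence could not be compared, so seeds shared with them would be missed. They include miR-466i-5p and every member with a gene within Sfmbt2. The values for the 10 therefore do not describe that cluster.

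The members were detected on one side of their hairpins. Of the 65 members, 20 (30.8%) were detected in at least 1 isolation, against 16.7% of all mouse miRNAs, and 17 (26.2%) in all 3 isolations, against 7.78%. All 20 were on the arrays of isolations 2 and 3, where 16.6% and 15.2% of all mouse miRNAs were detected. In isolation 1, the 17 were detected, against 7.97% of all mouse miRNAs. Without isolation 1, 20 members were detected in every array. The 3 miRNAs picked for brightness raise these counts, and without them 17 of 62 family members (27.4%) were detected in at least 1 isolation and 14 in all.

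By arm, 17 of the 27 members with a name in 5p (63.0%) were detected, whereas 18.2% of all mouse 5p features were. Without miR-574-5p and miR-3082-5p, whose detection the choice for brightness fixed, it was 15 of 25 (60.0%). None of the 26 members with a name in 3p was detected in any isolation, against 12.4% of all mouse 3p features. Of the 12 members without an arm in the name, 3 were detected, against 23.4% of all such features. They were miR-466j, miR-669n and miR-1187, the last of which was picked for brightness. Both arms of 18 hairpins of the 4 families were on the array. In 10 of these (55.6%) the 5p arm was detected in all 3 isolations, against 7.29% of all mouse hairpins with both arms on the array. The 3p arm was detected in 0 of the 18, against 11.7% of those hairpins, and in 8 neither arm was detected. The 3p partners of miR-574-5p and miR-3082-5p, which are not members, were also not detected.

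**Figure D1:**
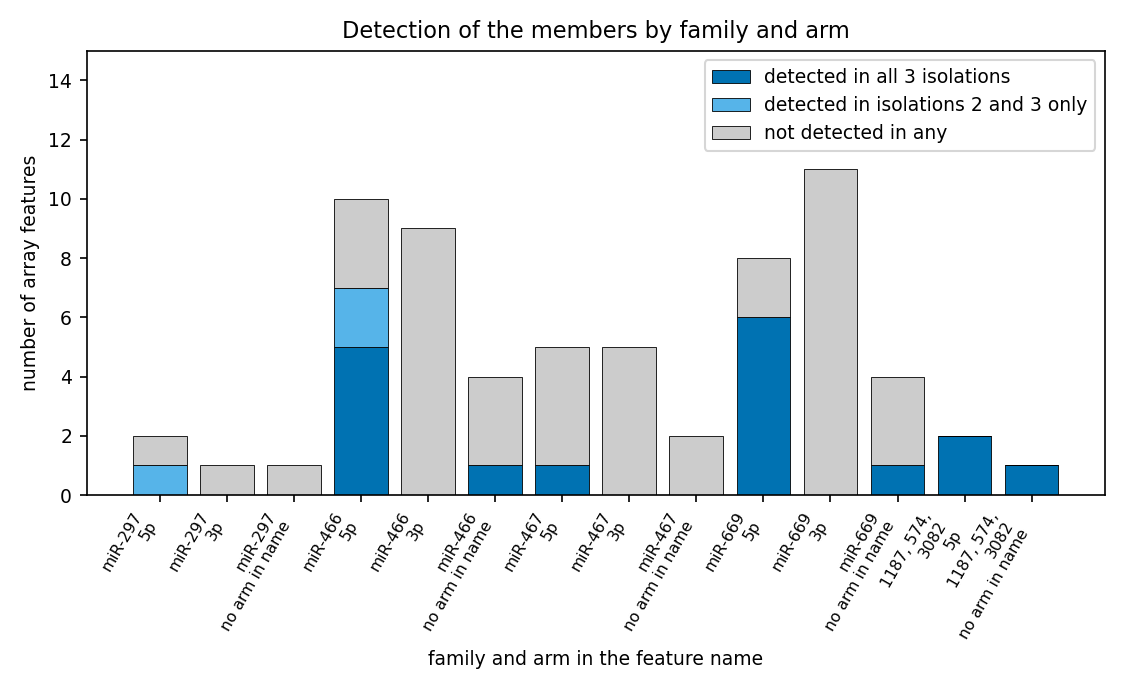
Number of array features (vertical axis, linear) for each family and arm (horizontal axis), stacked by detection in all 3 isolations, in isolations 2 and 3 only, or in none. The 26 features in 3p are in the last class throughout, while 17 of the 27 in 5p are not.

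Detected 5p arms were counted within each family. In the miR-669 family, 6 of 8 features in 5p were detected, all in every isolation (miR-669b-5p, miR-669e-5p, miR-669f-5p, miR-669k-5p, miR-669l-5p and miR-669o-5p), as was miR-669n. In the miR-466 family, 7 of 10 in 5p were detected, 5 of them in every isolation (miR-466c-5p, miR-466f-5p, miR-466h-5p, miR-466i-5p and miR-466m-5p), as was miR-466j. In the miR-467 family, 1 of 5 in 5p was detected, namely miR-467c-5p, and in the miR-297 family 1 of 2, namely miR-297c-5p. Over all mouse 5p features 18.2% were detected, and the share of the miR-467 family in 5p (20.0%) lay near this. These families are small, and the differences in counts between them were not tested.

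The genes of the members were looked up in the RefSeq gene table of GRCm38.p6 by name, which matched 64 of the 65 members to 82 genes. Of these genes, 70 lie within the span of Sfmbt2 and 12 elsewhere. Among the 49 members whose genes all lie within Sfmbt2, 12 were detected, against 16.7% of all mouse miRNAs. All 12 were among the 22 in 5p. Of the 11 members whose genes all lie elsewhere, 6 were detected, each in all 3 isolations. These were miR-466i-5p, whose gene lies within Cdk13, miR-574-5p (within Fam114a1 and Tlr6), miR-3082-5p (within Jmjd8 and Stub1), miR-669n (within Slc30a7), and miR-1187 and miR-466j, for which no other gene spans the locus. A span takes no account of strand. The 3 bright miRNAs of the rule are among these 6, so without them 3 of 8 remain. The members within and outside Sfmbt2 also differ in arm, since 23 of the 49 but 1 of the 11 are named in 3p. In 5p, 3 of 3 members outside Sfmbt2 were detected, among them miR-574-5p and miR-3082-5p, which were picked for brightness. A part of the location in detection was not tested.

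The brightest member was miR-466i-5p, whose gene lies outside the Sfmbt2 cluster. Its signal was 1025, 2595 and 1932 in isolations 1, 2 and 3 (log2 signal 10.75 ± 0.68, SD, n = 3), which gave it places 3, 4 and 4 among all detected mouse miRNAs of the arrays. That of miR-574-5p was 464.7, 1090 and 764.0 (9.51 ± 0.62), and that of miR-3082-5p was 354.0, 844.4 and 564.2 (9.11 ± 0.63). Each was lowest in isolation 1 and highest in isolation 2. The signal of miR-1187 was 275.2, 651.5 and 434.6 (8.74 ± 0.62), and that of miR-669n, the brightest member of its family, was 222.8, 496.4 and 307.2 (8.34 ± 0.58). The deposited error of these 5 miRNAs was 7.12% to 7.45% of the signal in isolation 1. The other 12 members detected in all isolations were much dimmer, with a gap after miR-669n. Over isolations 2 and 3 alone, the mean log2 signals of the 5 brightest, in the same order, were 11.13, 9.83, 9.43, 9.06 and 8.61.

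Signals of the next member, miR-466m-5p, were 54.8, 138.2 and 82.4, and those of miR-669l-5p were 43.8, 144.0 and 80.4. For miR-669e-5p they were 36.9, 119.2 and 63.4. The pattern was again lowest in isolation 1 and highest in isolation 2, as it was for all 17 members detected in every isolation. Signals of miR-466h-5p were 33.5, 94.2 and 57.0, those of miR-466j 29.0, 82.2 and 45.5, and those of miR-669b-5p 26.1, 75.8 and 48.1. The isolations of each did not overlap by their deposited errors. For miR-669o-5p the signals were 18.9, 73.5 and 39.0, for miR-669k-5p 17.6, 66.7 and 38.1, and for miR-466c-5p 12.7, 65.3 and 33.7. With these, the family members reached the lower end of the signals of isolation 1.

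The dimmest members detected in all isolations were miR-467c-5p (9.84, 38.6 and 18.8), miR-669f-5p (9.99, 39.5 and 14.7) and miR-466f-5p (6.97, 27.6 and 15.6). Their errors in isolation 1 were 26.7%, 26.3% and 20.1% of the signal. In isolations 2 and 3 only, miR-297c-5p was detected with signals of 30.6 and 9.64, miR-466p-5p with 15.6 and 8.62, and miR-466a-5p with 14.4 and 4.41. In isolation 3, the signal of miR-466a-5p was the lowest of the detected mouse miRNAs. In isolation 3, the signals of these 3 miRNAs lay below those of all 17 members detected in every isolation. In isolation 2, the signal of miR-297c-5p (30.6) lay above that of miR-466f-5p (27.6).

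In the order of mean log2 signals, 12 of the 16 neighboring pairs of these 17 members had the same order in all 3 isolations. For 5 pairs, those among the 5 brightest members and the step from miR-669n to miR-466m-5p, the signals also lay farther apart than their summed errors in every isolation. For the other 11 pairs, neighbors did not differ beyond these errors in at least 1 isolation. These are orders of signals and not of RNA amounts, since probes differ in their response.

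**Figure D2:**
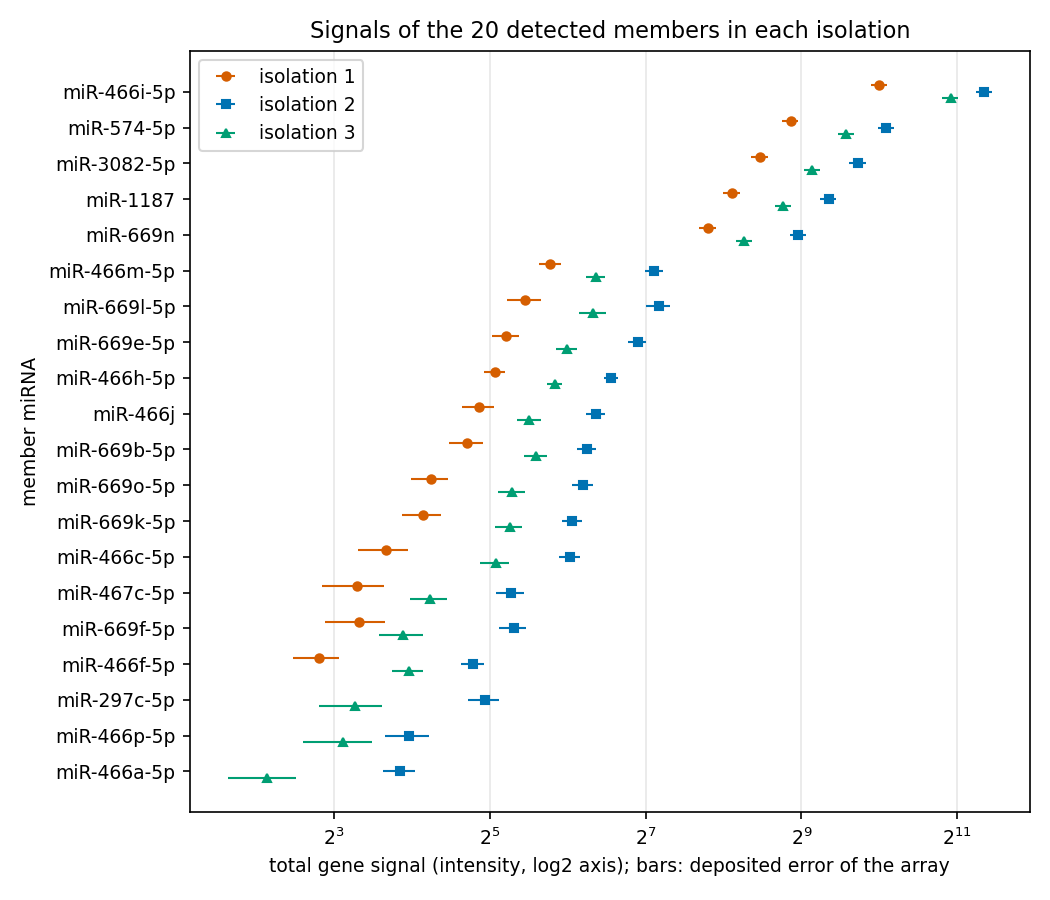
Total gene signal (horizontal axis, log2 scale) of the 20 detected members in isolations 1, 2 and 3, with the deposited error of each array as bars, for members in order of mean log2 signal and, at the bottom, the 3 not detected in isolation 1. In all 17 members detected in every isolation, isolation 1 is lowest and isolation 2 highest.

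The share of the summed signal was taken for all members and for each family. All members together held 19.5%, 15.8% and 13.0% of the summed signal of the detected mouse miRNAs in isolations 1, 2 and 3 (16.1% ± 3.27, SD, n = 3), of which miR-466i-5p alone held 7.56%, 6.11% and 5.49% (6.39% ± 1.06). The 3 miRNAs picked for brightness held 8.07%, 6.09% and 5.01%, so the 4 families without them held 9.69% ± 1.73. The miR-466 family held 7.30% ± 1.19 and the miR-669 family 2.28% ± 0.555. In contrast, the miR-467 family held 0.0723% ± 0.0188, and miR-297c-5p, the detected member of its family, 0.0721% and 0.0274% in isolations 2 and 3. Within the 4 families, miR-466i-5p and miR-669n held between 75.1% (isolation 2) and 80.6% (isolation 1) of the families' own signal. Over isolations 2 and 3 alone, the mean share was 14.4% for all members, 8.82% for the 4 families and 5.80% for miR-466i-5p. It was 6.67% for the miR-466 family, 2.03% for the miR-669 family and 0.0721% for the miR-467 family.

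The share was highest in isolation 1, where the fewest miRNAs were detected and the listed mesenchymal miRNAs were dimmest. The let-7 and miR-98 miRNAs, a family abundant in differentiated cells, were instead lowest in isolation 1, with 0.920%, 3.23% and 3.12% of the summed signal in isolations 1, 2 and 3. The part of either in the members' share was not tested. In vesicle RNA, fewer vesicles that carry a miRNA and less of it per vesicle cannot be told apart. A share depends on every other miRNA of its array, and the brightest mouse miRNA of each array weighed on it. With that miRNA left out of the sum, the members held 24.2%.

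**Figure D3:**
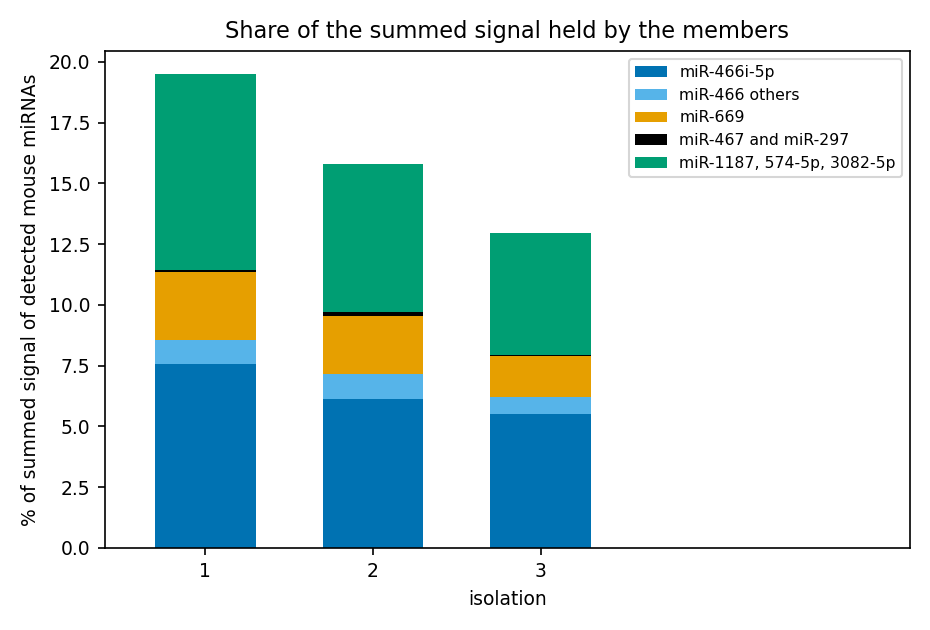
Percentage of the summed signal of detected mouse miRNAs (vertical axis, linear from 0) held by the members in each isolation (horizontal axis), stacked by miR-466i-5p, the other miR-466 members, miR-669, miR-467 with miR-297, and the 3 miRNAs picked for brightness. The stacks reach 19.5%, 15.8% and 13.0% in isolations 1, 2 and 3.

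The ratios between the bright members were kept better than their levels. Relative to miR-466i-5p in the same array, the signal of miR-574-5p was 45.3%, 42.0% and 39.5% (42.3% ± 2.92, SD, n = 3), that of miR-3082-5p 32.1% ± 2.71, that of miR-1187 24.8% ± 2.20 and that of miR-669n 18.9% ± 2.93. All 4 were highest in isolation 1 and lowest in isolation 3. Over isolations 2 and 3 alone, the means were 40.8%, 30.9%, 23.8% and 17.5%, in the same order of miRNAs. Over the 17 members detected in all isolations, the ranks of signals had a Spearman's rho of 0.998 between isolations 1 and 2, 0.99 between 1 and 3 and 0.99 between 2 and 3. Over the 67 other mouse miRNAs detected in all isolations it was 0.71, 0.75 and 0.98. The miRNAs of an array share its RNA and labeling and members can share probe targets, so these are descriptions and carry no p.

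In isolation 2, the signals of all 17 members were higher than in isolation 1, by a median of 1.54 on the log2 scale, and by 1.16 (miR-669n) to 2.37 (miR-466c-5p). The median over all 84 mouse miRNAs detected in all isolations was 1.37, and over the 67 that are not members 1.26. The spread was narrower among the members, with an SD across miRNAs of 0.35 against 1.20 for these 67 others, whose differences ran from -0.38 to 4.50. In the 62 of these others that lay within the members' range of signals in isolation 3, the SD was 1.22. The difference was larger than the summed deposited errors of the 2 signals in 17 of 17 members and in 63 of the 68 others detected in both. These errors cover the reading within an array and not the spread between isolations, so passing them is no test of a member. Set to the median of each array over the 84 miRNAs detected in all isolations, members included, the members' median difference was -0.0034. After quantile normalization it was 0.17. Without scaling, the members' median of 1.54 lay above that of all 84 (1.37) and of the 67 others (1.26). The size of the members' own difference thus depended on the scaling. Scaling to array medians shifts all miRNAs of an array alike, so it leaves the gap between members and others unchanged. The median of the others after quantile normalization is not given here. A difference between members and others was not tested.

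Among the members, dim miRNAs differed more between isolations 1 and 2 than bright ones. The 5 brightest differed by a median of 1.24 (1.16 to 1.34) and the other 12 by 1.82 (1.33 to 2.37). Across the 17 members, the log2 signal in isolation 3, which is no part of the difference, and the difference between isolations 2 and 1 had a Spearman's rho of -0.88. Across the 67 others it was 0.21. Both pairs of values come from the same arrays, and a family's members share sequence. The 4 let-7 miRNAs detected in all isolations differed by a median of 3.24 (2.59 to 4.22), beyond the range of the members, although no test of this was possible with 1 array per isolation. The very bright miR-5126, miR-3963 and miR-709 differed by 0.80 to 3.24.

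From isolation 2 to isolation 3 the members' signals were lower, by a median of 0.81 on the log2 scale among the 17. The differences, isolation 3 minus isolation 2, ran from -1.42 (miR-669f-5p) to -0.43 (miR-466i-5p), and the median over all 84 miRNAs was -0.36. Over the 67 others it was -0.31. After scaling to the array medians the members' median was -0.57, and after quantile normalization -0.42. Differences between isolations 2 and 3 were larger than the summed errors within the arrays in 20 of 20 members and in 84 of the 144 others detected in both. Among these, 3 members and 77 others were not detected in isolation 1, and the sets were not matched for signal. Between isolations 1 and 3 the differences were larger than the summed errors in 16 of 17 members, the exception being miR-669f-5p, and in 58 of 67 others. The order of isolation 2 above 3 above 1 held in 17 of 17 members and in 55 of the 67 others (82.1%).

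**Figure D4:**
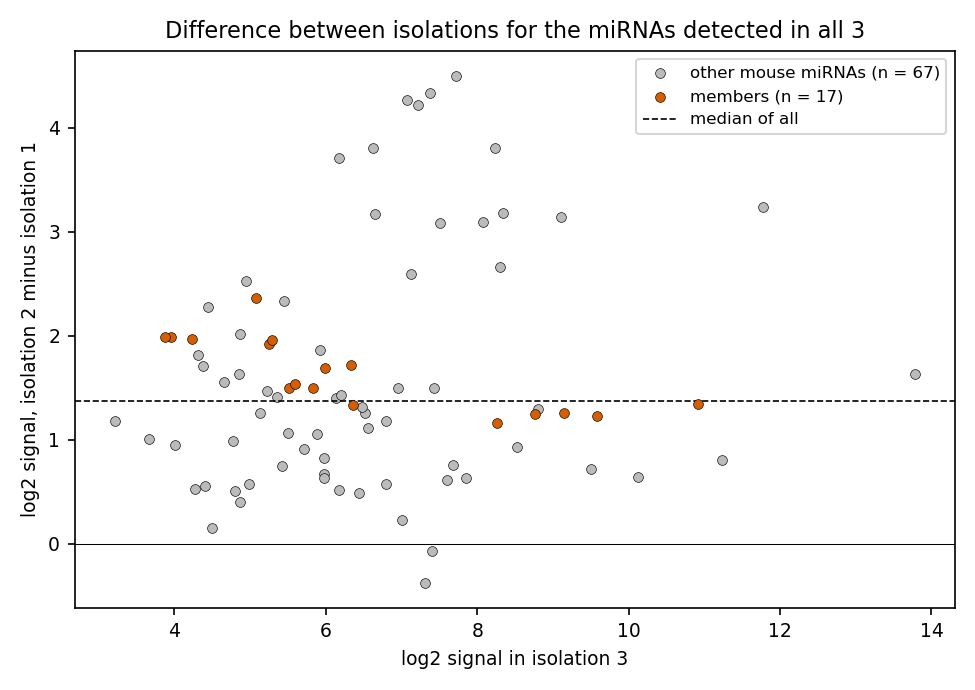
Difference in log2 signal, isolation 2 minus isolation 1 (vertical axis), against the log2 signal in isolation 3 (horizontal axis), for the 17 members and the 67 other mouse miRNAs detected in all isolations, with the median of all 84 as a dashed line. The members lie in a band from 1.16 to 2.37, highest at low signals, while the others spread from -0.38 to 4.50.

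Detection of the members was also set against the repeats in their sequences. A UG run was taken as the longest unbroken stretch in which U and G alternate, in either phase, and had at least 8 bases in 5 of the 10 members with a sequence. It spans 13 bases in miR-574-5p (bases 4 to 16), 11 in miR-1187 (3 to 13), 10 in miR-3082-5p (7 to 16), 9 in miR-466k (1 to 9) and 8 in miR-669n (4 to 11). Of these 5 members, 4 were detected in all isolations, and 3 of the 4 are the miRNAs picked for brightness. The exception was miR-466k, which was not detected although its run is longer than that of miR-669n. In miR-466j, detected at low signals, the longest run was 7 bases. None of the 10 members with a sequence has a gene within Sfmbt2, so runs in that cluster were not examined.

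The run was therefore looked up in all 867 mouse features with a sequence, of which 15.9% were detected in at least 1 isolation. With the 3 miRNAs picked for brightness left out, 4 of 5 features with a UG run of at least 8 bases were detected, 3 of them in all isolations, against 15.3% of those without one. The 3 that are not members were all detected. They are printed here with the seed in capitals, because their runs lie outside the seed except for 1 base of miR-32-3p.

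miR-32-3p: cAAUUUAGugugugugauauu

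miR-672-5p: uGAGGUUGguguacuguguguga

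miR-3097-5p: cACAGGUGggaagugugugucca

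Signals in isolations 1, 2 and 3 were 104.4, 295.0 and 173.0 for miR-32-3p, whose run covers bases 8 to 16, so that its first base is the last of the seed. They were 47.9, 128.8 and 73.3 for miR-672-5p (bases 15 to 22). The feature for miR-3097-5p (bases 13 to 20) was not detected in isolation 1 and had signals of 28.5 and 7.82 in isolations 2 and 3. Between isolations 1 and 2, miR-32-3p differed by 1.50 and miR-672-5p by 1.43 on the log2 scale, within the range of the members. With shorter runs, detection was found in 5 of 10 features with a run of 6 to 7 bases, 27 of 138 with 4 to 5 and 99 of 711 with 0 to 3.

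A run of alternating C and A is the complement of the UG run. Of the features with a CA run of 0 to 3 bases 16.1% were detected, and of those with 4 to 5 bases 16.8%. Among the 15 features with a CA run of at least 6 bases, 0 were detected in any isolation. The share over all mouse miRNAs with a sequence was 15.9%, and a difference from it was not tested at these 15 features. In this group, 4 had at least 8 bases, and all 4 were members. These are miR-466q and miR-467f with 12 bases, miR-466i-3p with 11 and miR-467g with 9, all printed above. By composition, 8 of the 12 features with at least 80% U and G that are not members were detected, including let-7b-5p, let-7c-5p and let-7i-5p. Of the 104 features with under 40% U and G, 11 were detected. The part of base composition in probe signal was not tested.

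**Figure D5:**
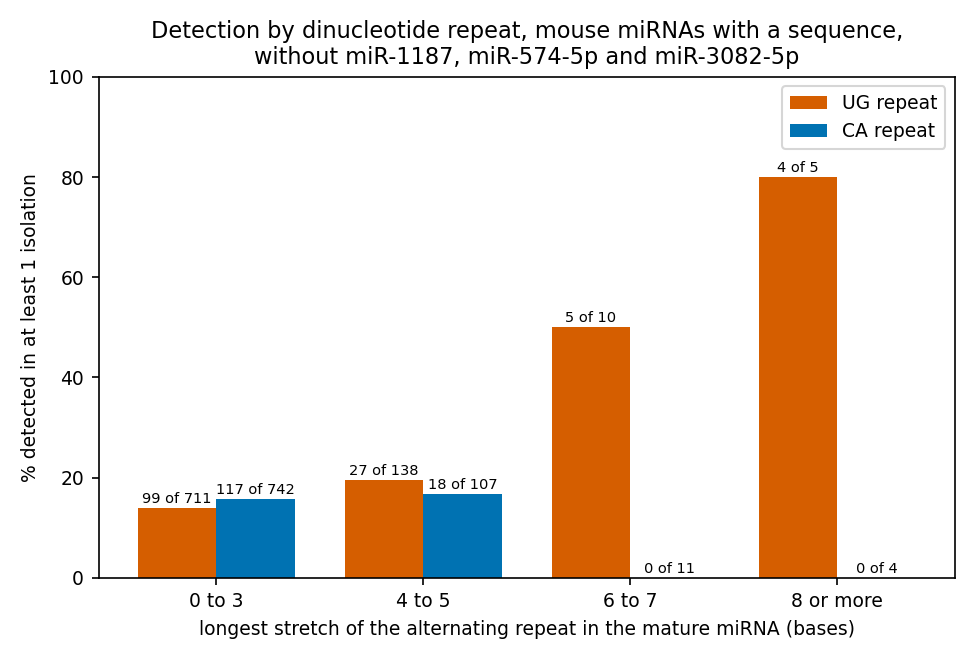
Percentage of mouse miRNA features with a sequence, without the 3 picked for brightness, that were detected in at least 1 isolation (vertical axis, linear from 0), by the longest stretch of alternating U and G or of alternating C and A in bases (horizontal axis), with the number detected of the number of features above each bar. Detection was 4 of 5 at 8 or more bases of UG and 0 of 4 at 8 or more bases of CA.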

How the data were processed

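MV RNA was profiled on 1 Agilent mouse miRNA array per isolation (n = 3), numbered as in the titles. The deposited values are the intensity (total gene signal) of 1157 features with an error and a detection call, as the authors obtained them from the scans. Per the submitters' processing notes, the tool was Agilent Feature Extraction 10.10.1.1. Intensities carry no normalization between arrays, and undetected features hold a signal of 0.1 and an error of 1. Control and 57 viral features were left out.

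Members were taken by name, detection was counted from the call, and log2 signals were compared without a shift. Members detected in any isolation were named, as were other detected miRNAs with a UG run of at least 8 bases and, where sequences allowed, near-identical pairs. No group was compared and no test was run. The number of arrays, 3, limits precision. The members, lists and settings were chosen with earlier results of these data known. Alternatives were another detection rule, the families alone, other sums, 2 scalings, run lengths of 6 and 10 bases, a limit of 4 times the lowest signal, and each isolation left out. Functions were tested on simulated data. Python 3.11.15 with numpy 2.4.6, pandas 2.3.3, scipy 1.17.1 and matplotlib 3.10.9 was used.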

Additional observations from a re-analysis of the deposited data

How the results depend on the processing

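Of 40 alternative values, 36 stayed close to the main value. The 36 include counts of members detected in at least 1 isolation with 1 isolation left out, also those of 5p members and of members with a UG run. Those counts could not change, because isolations 2 and 3 each held all 20 detected members. The detected members with a UG run of at least 10 bases were only the 3 picked for brightness, so that value is no test either. The members' share of the summed signal, 16.1%, was 24.2% with the brightest mouse miRNA of each array left out and 9.69% for the 4 families alone. Leaving out 1 isolation at a time gave 14.4% to 17.6%. The median log2 difference of the members between isolations 2 and 1, 1.54, was -0.0034 after scaling to array medians and 0.17 after quantile normalization, since both settings remove a shift shared by the array. The median between isolations 3 and 2, -0.81, was -0.57 and -0.42 under the same settings, which were chosen here after seeing the data. The median between isolations 2 and 1 was 1.34 for the 11 members with signals over 4 times the lowest in every array. The number of members detected in all isolations, 17, was 17 to 20 when single isolations were dropped, and 20 without isolation 1. The number detected in 3p, 0, could not rise under any alternative run, so these are no test of it. No paired analysis was possible because all 3 samples belong to a single group. Signals under the detection limit were not resolved, so no ratio of 5p to 3p was given.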

Other observations

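The place of the repeat within the miRNA was looked at after the values were seen. The letters GUGU occurred within the seed of 15 of the 867 mouse features with a sequence (1.73%). Of these, 5 were members, of which miR-1187 and miR-574-5p were picked for brightness. Of the other 3, miR-466j and miR-669n were detected and miR-466k was not. Of the 10 that are not members 1 was detected, miR-199a-5p, and 0 in all isolations. The letters ACAC occurred within the seed of 18 features, of which 3 were members and 1, miR-3095-3p, was detected. Over all mouse miRNAs with a sequence, 15.9% were detected in at least 1 isolation. Among the features that are not members, it was 3 of 3 with a UG run of at least 8 bases and 1 of 10 with GUGU in the seed. These numbers are too small to compare.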
